A study of Mus musculus with 6 samples.

Results

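Actin filaments give a macrophage its cortex, its ruffles and the podosomes with which it grips a surface, and 45 genes of this machinery were followed here in mouse macrophages grown from 2 kinds of bone marrow monocyte. The genes were picked by name for their known roles, with earlier results of these data known. They cover the cytoplasmic actins, the Arp2/3 complex and its activators, formins and Ena/VASP proteins, and coronins. Capping, bundling and contractile proteins, linkers of membrane to actin, and scaffolds of adhesion plaques and podosomes are also included. All 45 of them were found among the 24411 genes listed for each library, 44 by symbol and Diaph1, listed under the older symbol Diap1, by its RefSeq accession. Of these, 44 passed the filter on low counts; Enah did not.

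The study asked how macrophages differ when they descend from different monocyte subsets. Monocytes of C57BL/6 mice were sorted from bone marrow by flow cytometry as LFA1-lo Itgam-lo or LFA1-hi Itgam-hi cells and cultured for 7 days with 20 ng/ml M-CSF, the growth factor that drives macrophage differentiation, and 10% serum, with fresh medium on day 4. Each group (LFA1-lo and LFA1-hi below) holds 3 libraries of ribosomal-RNA-depleted RNA, and the culture conditions were the same for both groups. Whether replicates are separate mice or separate cultures is not recorded in the labels. Every p-value therefore measures only the spread between these libraries, which may be technical.

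Actin monomers, handled by profilin and cofilin, are assembled into branched networks by the Arp2/3 complex and into straight filaments by formins and Ena/VASP proteins. Other proteins then bundle, cap, decorate or sever the filaments. ERM proteins and MARCKS proteins tie the cortical filaments to the plasma membrane, and talin, vinculin, zyxin and paxillin couple integrins to actin. In macrophages the latter form the ring of a podosome, around a core built by WASP, Arp2/3 and cortactin.

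Summed expected counts were 15191262 to 17614509 per library, and 3 counts corresponded to 0.17 to 0.197 CPM (counts-per-million). In the fit over all 11692 tested genes, 3705 (31.7%) had an edgeR adjusted p under 0.05: 1883 (16.1%) were higher in LFA1-hi and 1822 (15.6%) lower, so 50.8% of the calls were higher. This split was 60.9% with library totals in place of TMM scaling, which moved the median log2 fold change of all genes by 0.0623. The 3 libraries did not overlap between groups for 47.8% of the tested genes. The cells carried macrophage genes: the 8 macrophage markers summed to 13857 to 22952 CPM, and 5 of them were lower in LFA1-hi. Genes of fibroblasts, smooth muscle cells, dendritic cells and lymphocytes summed to at most 4.70 CPM in any library, with Pdgfra, Lum, Thy1, Des, Rgs5, Myocd, Flt3, Ccr7 and Cd3e among those at 0 throughout. Proliferation genes moved with the groups: 20 of 20 genes of the G2 and M phases and 14 of 15 of S phase were higher in LFA1-hi. Neutrophil markers summed to 11.9 to 42.5 CPM in LFA1-lo and 4.02 to 6.05 CPM in LFA1-hi, with 3 of 4 tested ones lower. Endothelial markers summed to 104 to 147 CPM and 77.6 to 84.7 CPM, mostly from Vwf, which was lower. Emcn and Cldn5 were at 0, and the other 3 tested ones (Pecam1, Cdh5 and Kdr) had higher values in LFA1-hi without overlap but did not pass. Platelet markers summed to 227 to 302 CPM and 258 to 291 CPM, nearly all from Pf4; of the other tested ones, at no more than 1.596 CPM, Ppbp was lower in LFA1-hi and Gp1ba did not pass. The part of these genes in the results was not tested.

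The linkers of membrane to actin and the adhesion scaffolds held 9 of the 14 genes that passed the test, and no actin or Arp2/3 subunit was among them. Among the 44 tested genes, 14 passed the test (31.8%, against the 31.7% of all tested genes): 3 were higher in LFA1-hi (6.82%, against 16.1%) and 11 lower (25%, against 15.6%). Their groups did not overlap for 19 genes (43.2%, against 47.8%). Of the 14, only ezrin (Ezr) differed by 2-fold or more. The median log2 fold change (LFA1-hi minus LFA1-lo) was -0.08, beside -0.00 for all tested genes, and 28 of the 44 values were negative. For 29 genes (65.9%) the 95% interval of the fold lay wholly within 1.5-fold in both directions, against 41.4% of all tested genes. These genes were also measured more precisely than most, with a median of 325 CPM beside 25.9 and a median standard error (SE) of 0.0934 on the log2 scale beside 0.146. In bulk RNA a lower level in every cell and fewer cells with a high level cannot be told apart.

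**Figure D1:**
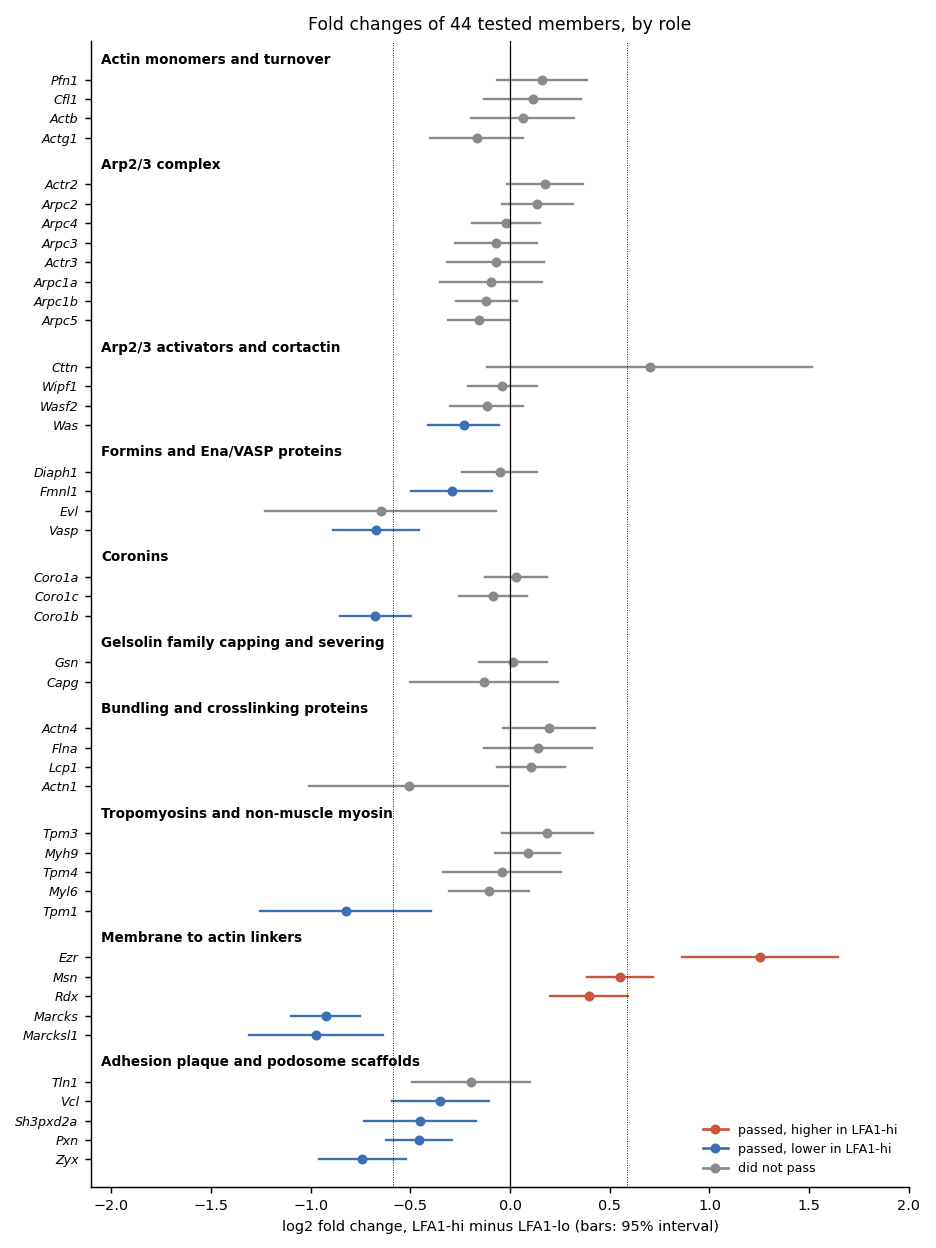
Log2 fold change (LFA1-hi minus LFA1-lo, horizontal axis) of the 44 tested genes, grouped by role, with 95% intervals as bars; dotted lines mark a 1.5-fold change. All 5 membrane linkers passed the test, 3 higher and 2 lower, 4 of the 5 adhesion scaffolds were lower, and no Arp2/3 subunit passed. Of all tested genes, 31.7% passed, 16.1% higher and 15.6% lower.

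One library bore on several of these values. LFA1-lo replicate 2 was the highest of the LFA1-lo libraries for 30 of the 44 genes (68.2%), beside 39.1% of all tested genes. It also stood apart in osteoclast genes, whose 7 markers summed to 626 CPM there against 157 to 201 CPM in the other LFA1-lo libraries and 105 to 199 CPM in LFA1-hi. Dcstamp, a gene of osteoclast fusion, was at 157 CPM in that library, 28.6 and 54.1 CPM in the other LFA1-lo libraries and 2.79 to 3.53 CPM in LFA1-hi, while Calcr, a defining osteoclast gene, was at 0 in all 6 libraries. Of the 6 tested osteoclast markers, Dcstamp and Mmp9 were lower in LFA1-hi and Acp5 was higher (log2 fold change 1.82, edgeR adjusted p = 0.000459). How far osteoclast genes account for the values of the 45 genes was not tested. Without LFA1-lo replicate 2, 22 of 44 genes passed (50%, against 42.3% of all tested genes then). The 14 genes were still called, and 8 more were called higher: Cfl1, Pfn1, Actr2, Arpc2, Cttn, Flna, Actn4 and Tpm3. The count of higher genes thus went from 3 to 11 while the lower genes remained 11.

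The ERM family and the MARCKS family moved in opposite directions. Ezrin, moesin and radixin, the ERM proteins, fasten cortical filaments to membrane proteins through an amino-terminal membrane-binding domain and a carboxy-terminal actin-binding one. Ezr (chr17:6738131-6782780, GRCm38) was at 35.5, 31.3 and 48.8 CPM in LFA1-lo replicates 1, 2 and 3 and at 107, 84.3 and 84.0 CPM in LFA1-hi. Every LFA1-hi library was well above every LFA1-lo library. Its log2 fold change was 1.25 (SE 0.17, n = 3 and 3), or 2.38-fold (95% interval 1.82 to 3.13), with an edgeR adjusted p of 0.00101. Moesin (Msn, chrX:96096045-96168553), the ERM protein that predominates in leukocytes, was at 1080.2, 1048, 1071 CPM in LFA1-lo and 1650.4, 1519 and 1519 CPM in LFA1-hi. The groups were clear of each other, with little spread inside LFA1-lo. Msn was 1.47-fold higher (log2 fold change 0.55, SE 0.07, edgeR adjusted p = 0.000637). Radixin (Rdx) was at 112, 119 and 126 CPM in LFA1-lo and 156, 169 and 145 CPM in LFA1-hi, a log2 fold change of 0.39 (SE 0.09, edgeR adjusted p = 0.00832). All 3 ERM genes rose, then, the rarest of them by the largest factor. Per length, Msn still made up 87.5% ± 1.26 (SD, n = 3) of the ERM level in TPM (transcripts-per-million) in LFA1-lo and 86.1% ± 0.659 in LFA1-hi, while the Ezr share was 4.00% ± 0.863 and 6.41% ± 0.590.

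MARCKS and its smaller relative MARCKSL1 are lipid-anchored proteins that bind actin and release the membrane when protein kinase C or calmodulin acts on them. Marcks (chr10:37133243-37138926) was at 296, 297 and 319 CPM in LFA1-lo and at 164, 167 and 149 CPM in LFA1-hi. The LFA1-lo libraries all lay far above the LFA1-hi ones. It fell by 0.92 on the log2 scale (SE 0.08, edgeR adjusted p = 6.1e-05), which made it 1.90-fold higher in LFA1-lo. Marcksl1 (chr4:129513581-129515981) was at 157, 161 and 139 CPM in LFA1-lo and at 97.8, 67.2 and 67.7 CPM in LFA1-hi. LFA1-hi replicate 1 was the nearest to LFA1-lo, and the groups did not overlap. The change was -0.97 (SE 0.15, edgeR adjusted p = 0.0015). These 5 linkers were called in each of the 6 fits that left out a library. Marcks held 41.1% ± 2.88 of the summed TPM of the pair in LFA1-lo and 42.2% ± 4.83 in LFA1-hi (exact permutation test, p = 0.9).

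**Figure D2:**
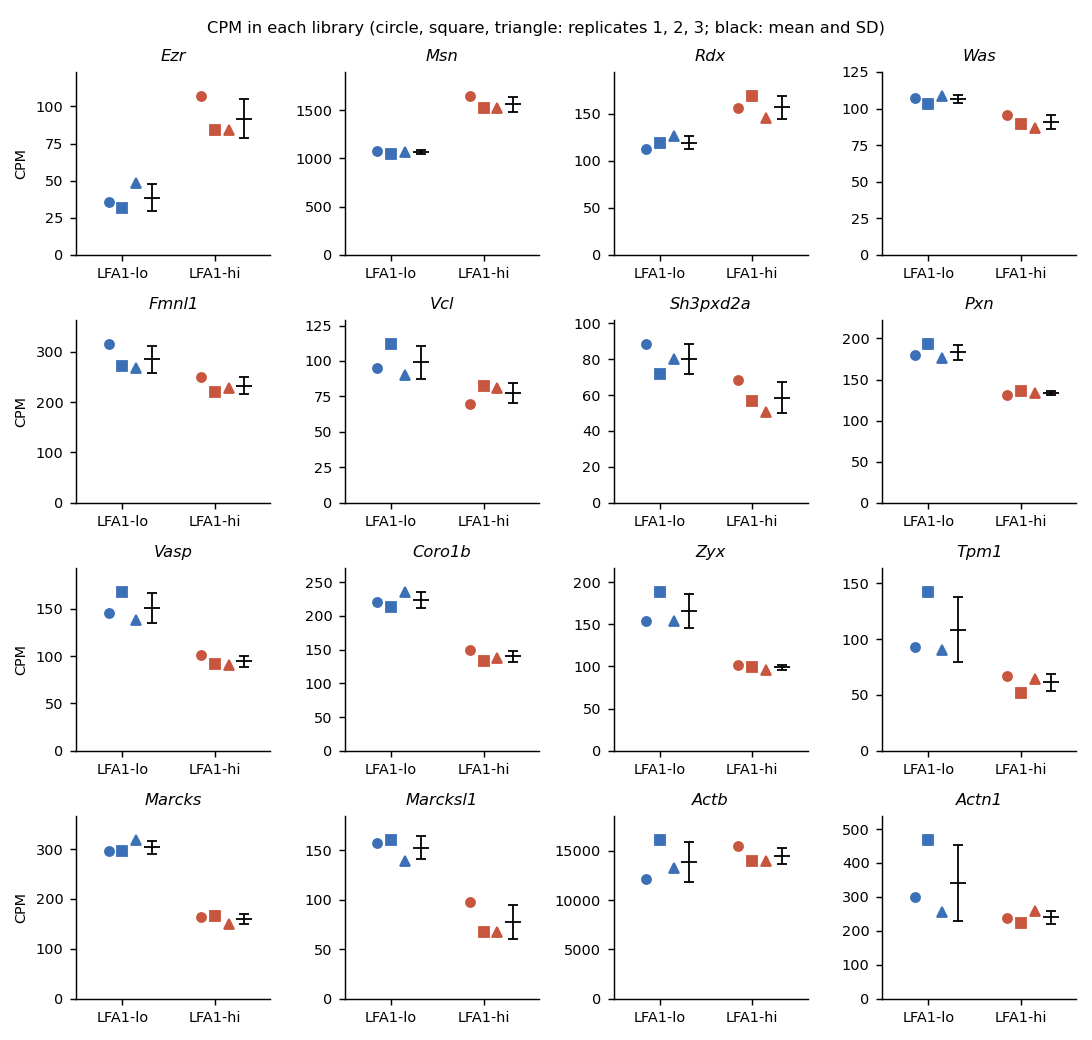
CPM (vertical axes, from 0) in each library of the 14 genes that passed the test and of Actb and Actn1, which did not; circles, squares and triangles are replicates 1, 2 and 3, and black bars the mean and SD. The groups were separate in the first 14 panels, and for Actn1 LFA1-lo replicate 2 (468 CPM) stood above all other libraries.

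Among the adhesion and podosome scaffolds, 4 of 5 were lower in LFA1-hi (80%, against 15.6% of all tested genes). With 1 library set aside this count was 2 to 4. Zyxin (Zyx, chr6:42349511-42360213), a LIM protein that gathers at tensed adhesions and binds VASP, was at 154, 189 and 154 CPM in LFA1-lo and 102, 99.0 and 95.6 CPM in LFA1-hi. No LFA1-hi library reached the lowest LFA1-lo one. Its log2 fold change was -0.74 (SE 0.10, edgeR adjusted p = 0.000569). Paxillin (Pxn), a scaffold for kinases at integrin adhesions, was at 180.4, 194 and 176 CPM against 131, 136 and 134 CPM, a log2 fold change of -0.46 (SE 0.07, edgeR adjusted p = 0.00175). Both groups were tight and well apart.

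The other 2 calls of the scaffolds were less secure. Sh3pxd2a encodes TKS5, the scaffold on which podosomes and invadopodia are organised. It was at 88.6, 71.9 and 80.3 CPM in LFA1-lo and 68.2, 56.9 and 50.8 CPM in LFA1-hi, with LFA1-lo replicate 2 only just above LFA1-hi replicate 1 (log2 fold change -0.45, SE 0.12, edgeR adjusted p = 0.0218). Vinculin (Vcl), which binds talin and actin under load, was at 94.9, 112 and 89.9 CPM against 69.6, 82.3 and 81.2 CPM, a narrow gap (log2 fold change -0.35, SE 0.11, edgeR adjusted p = 0.0359). Setting aside LFA1-lo replicate 1 raised the adjusted p of Sh3pxd2a to 0.084, and doing so with replicates 2 and 3 of LFA1-hi raised it to 0.095 and 0.0978. For Vcl the adjusted p became 0.0667 once LFA1-lo replicate 1 was set aside, and 0.15, 0.0774 and 0.0828 for replicates 1, 2 and 3 of LFA1-hi. Talin 1 (Tln1), the link from integrin tails to actin, was at 1811, 2304 and 1563 CPM in LFA1-lo and 1589.7, 1616 and 1744 CPM in LFA1-hi. The groups overlapped, and Tln1 did not pass (log2 fold change -0.20, SE 0.13, edgeR adjusted p = 0.285).

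Of the 4 tested proteins that elongate straight filaments, Vasp and Fmnl1 were lower and Evl and Diaph1 did not pass. VASP (Vasp, chr7:19256929-19271854), a filament elongation factor recruited by zyxin, was at 146, 168 and 138 CPM in LFA1-lo and 101, 91.8 and 90.8 CPM in LFA1-hi. The groups did not touch, and Vasp fell by 0.67 on the log2 scale (SE 0.10, edgeR adjusted p = 0.000873). Its blood-cell relative Evl was at 199, 304 and 145 CPM in LFA1-lo and 127, 140.2 and 146 CPM in LFA1-hi. LFA1-hi replicate 3 lay just above LFA1-lo replicate 3, so the groups overlapped, and Evl did not pass (log2 fold change -0.65, SE 0.25, edgeR adjusted p = 0.0858). Its adjusted p was 0.00768 once LFA1-lo replicate 3 was set aside and 0.0111 with DESeq2. Without LFA1-lo replicate 2, its highest library, the Evl change was -0.32 (adjusted p = 0.0844). The third member of the family, Enah, was at 0, 0.191 and 0.411 CPM in LFA1-lo and 0.0559, 0 and 0.336 CPM in LFA1-hi, at or near the level of 3 counts, and was not tested.

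The leukocyte formin Fmnl1 was at 316, 273 and 267 CPM in LFA1-lo and 251, 219.8 and 229 CPM in LFA1-hi. The groups were separate by a narrow gap, with a log2 fold change of -0.29 (SE 0.09, edgeR adjusted p = 0.0351). Its adjusted p became 0.127 once LFA1-lo replicate 1 was set aside, and 0.0543, 0.158 and 0.13 for replicates 1, 2 and 3 of LFA1-hi. The formin Diaph1 was at 362, 370.3 and 310.4 CPM against 337, 328 and 342 CPM and did not pass (log2 fold change -0.05, edgeR adjusted p = 0.677), with a 95% interval of the fold of 0.847 to 1.10.

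One coronin was lower and its relatives were not. Coronins sit on older filaments and regulate Arp2/3 and cofilin. Coro1b (chr19:4148611-4154035), which acts at the leading edge of migrating cells, was at 221, 213 and 236 CPM in LFA1-lo and 149, 133 and 138 CPM in LFA1-hi. Each LFA1-lo library stood far above each LFA1-hi library, with a log2 fold change of -0.68 (SE 0.08, edgeR adjusted p = 0.00033). Coro1a, the coronin of blood cells, was at 257, 250.3 and 240.1 CPM against 260.2, 252 and 251 CPM (log2 fold change 0.03, edgeR adjusted p = 0.765). Coro1c was at 510.2, 575 and 557 CPM against 536, 501 and 514 CPM (log2 fold change -0.08, edgeR adjusted p = 0.436). The Coro1a share of the summed coronin TPM was 35.96% ± 1.65 in LFA1-lo and 41.7% ± 0.610 in LFA1-hi, without overlap, and that of Coro1b was 28.6% ± 1.40 and 20.3% ± 0.507.

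Among tropomyosins, coiled coils that wrap filaments and set which proteins may bind them, Tpm1 stood alone. Tpm1 (chr9:67022590-67049672) was at 93.3, 142 and 89.8 CPM in LFA1-lo and 67.0, 52.2 and 64.5 CPM in LFA1-hi. LFA1-lo replicate 2 was highest, and the other LFA1-lo libraries were also above LFA1-hi. The log2 fold change was -0.82 (SE 0.19, edgeR adjusted p = 0.0118) and -0.58 without LFA1-lo replicate 2. Tpm3 was at 641, 799 and 630.2 CPM against 829.6, 756 and 772 CPM; its log2 fold change was 0.19 (edgeR adjusted p = 0.195), and 0.31 without LFA1-lo replicate 2 (adjusted p = 0.00126). Tpm4 was at 295, 399 and 276 CPM against 329.8, 311 and 302 CPM (log2 fold change -0.04, edgeR adjusted p = 0.841). The Tpm3 and Tpm4 groups overlapped, with LFA1-lo replicate 2 inside or above the LFA1-hi range. The non-muscle myosin II heavy chain Myh9 (log2 fold change 0.09, adjusted p = 0.392) and the light chain Myl6 (-0.11, adjusted p = 0.406) did not pass. The Myl6 groups overlapped, and those of Myh9 did not: 1468, 1574 and 1456 CPM in LFA1-lo and 1608.5, 1577 and 1595 CPM in LFA1-hi.

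The actins themselves did not pass. Actb (chr5:142903115-142907976), the more abundant cytoplasmic actin, was at 12195, 16133 and 13254 CPM in LFA1-lo and at 15474, 14011 and 13970 CPM in LFA1-hi. The LFA1-lo libraries spanned the LFA1-hi ones, and the log2 fold change was 0.06 (SE 0.11, edgeR adjusted p = 0.71); the 95% interval of the fold was 0.874 to 1.25. Actg1, the second cytoplasmic actin, was at 2750.3, 3518 and 2844 CPM in LFA1-lo and 2792, 2637 and 2684 CPM in LFA1-hi, also with overlap. Its change was -0.17 on the log2 scale (SE 0.10, edgeR adjusted p = 0.25). The share of Actb in the summed TPM of the 2 actins was 81.8% ± 0.379 in LFA1-lo and 84.1% ± 0.427 in LFA1-hi. The shares of the 3 LFA1-hi libraries all exceeded those of LFA1-lo, by 2.26 percentage points in the means. Cofilin 1 (Cfl1), which severs old filaments, had a log2 fold change of 0.11 (edgeR adjusted p = 0.465), and profilin 1 (Pfn1), which feeds monomers to growing ends, one of 0.16 (edgeR adjusted p = 0.255). Without LFA1-lo replicate 2 these were 0.24 (adjusted p = 0.00993) for Cfl1 and 0.27 (adjusted p = 0.00347) for Pfn1.

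None of the 8 Arp2/3 subunits passed the edgeR test with TMM scaling and all 6 libraries; 2 did without LFA1-lo replicate 2, and Actr2 did with library totals in place of TMM (0.24, adjusted p = 0.0474). The log2 fold changes ran from -0.16 (Arpc5) to 0.18 (Actr2), with 95% intervals within 1.5-fold for all 8. Actr2 was at 772, 933 and 872 CPM in LFA1-lo and 952, 979.8 and 978 CPM in LFA1-hi (edgeR adjusted p = 0.148). Arpc5 was at 561, 599.8 and 594 CPM against 523, 525 and 527 CPM (edgeR adjusted p = 0.112). The groups of both genes were separate, in opposite directions, as were those of Arpc1b, which was lower in LFA1-hi (log2 fold change -0.12, edgeR adjusted p = 0.214). Actr3, Arpc1a, Arpc2, Arpc3 and Arpc4 overlapped between groups. Without LFA1-lo replicate 2, Actr2 (0.24, adjusted p = 0.01) and Arpc2 (0.19, adjusted p = 0.0287) were called higher. Arpc1b, one of the 2 alternatives for subunit 1 of the complex, made up 92.5% ± 0.952 of the subunit 1 TPM in LFA1-lo and 92.4% ± 0.464 in LFA1-hi.

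Among the Arp2/3 activators and cortactin, only Was was called with all 6 libraries (25% of the 4 genes, against 31.7% of all tested genes). WASP (Was, chrX:8081466-8090491), the blood-cell activator needed for podosome cores, was at 107, 103 and 109 CPM in LFA1-lo and 95.9, 89.4 and 86.7 CPM in LFA1-hi. The groups were separate, but the log2 fold change of -0.23 (SE 0.08) lay at the threshold, with an edgeR adjusted p of 0.0496. Was kept its call in 9 of 21 other analyses; leaving out any library except LFA1-lo replicate 2 took its adjusted p to between 0.0744 and 0.193. The WAVE protein Wasf2 (-0.12, edgeR adjusted p = 0.31) and the WASP partner Wipf1 (-0.04, edgeR adjusted p = 0.729) did not pass. Cortactin (Cttn), which steadies branches, was scarce at 5.91, 10.8 and 4.17 CPM in LFA1-lo and 12.7, 7.64 and 13.4 CPM in LFA1-hi. Its groups overlapped, and the log2 fold change was 0.70 (SE 0.36, edgeR adjusted p = 0.171). Without LFA1-lo replicate 2, the highest of its group, it was 1.16 (adjusted p = 0.00318).

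Capping, bundling and crosslinking proteins gave no call in the edgeR fit with TMM scaling and all 6 libraries. Actn1, an alpha-actinin that crosslinks filaments, was at 300.5, 468 and 254 CPM in LFA1-lo and 238, 222 and 259 CPM in LFA1-hi. LFA1-lo replicate 2 was far above the rest, LFA1-lo replicate 3 lay inside the LFA1-hi range, and the log2 fold change was -0.51 (SE 0.21, edgeR adjusted p = 0.111). Actn1 passed without LFA1-lo replicate 3 (-0.68, adjusted p = 0.0269) and with DESeq2 (adjusted p = 0.0297), and its change was -0.21 without LFA1-lo replicate 2 (adjusted p = 0.0567). Its relative Actn4 was at 325, 388 and 292 CPM against 392, 370.7 and 387 CPM (log2 fold change 0.20, edgeR adjusted p = 0.181; 0.32 without LFA1-lo replicate 2, adjusted p = 0.00136). Actn1 thus held 50.3% ± 4.31 of the alpha-actinin TPM in LFA1-lo and 38.9% ± 1.47 in LFA1-hi, a gap of -11.4 percentage points with every LFA1-lo library above every LFA1-hi one.

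The crosslinker filamin A (Flna) had a log2 fold change of 0.14 (edgeR adjusted p = 0.411; 0.30 without LFA1-lo replicate 2, adjusted p = 0.0014). The leukocyte bundler L-plastin (Lcp1) had one of 0.11 (edgeR adjusted p = 0.32), the severing protein gelsolin (Gsn) 0.01 (adjusted p = 0.9) and the capping protein Capg -0.13 (adjusted p = 0.575). Of these, only the groups of Lcp1 did not overlap: 2421, 2644 and 2504 CPM in LFA1-lo and 2793, 2668 and 2685 CPM in LFA1-hi.

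**Figure D3:**
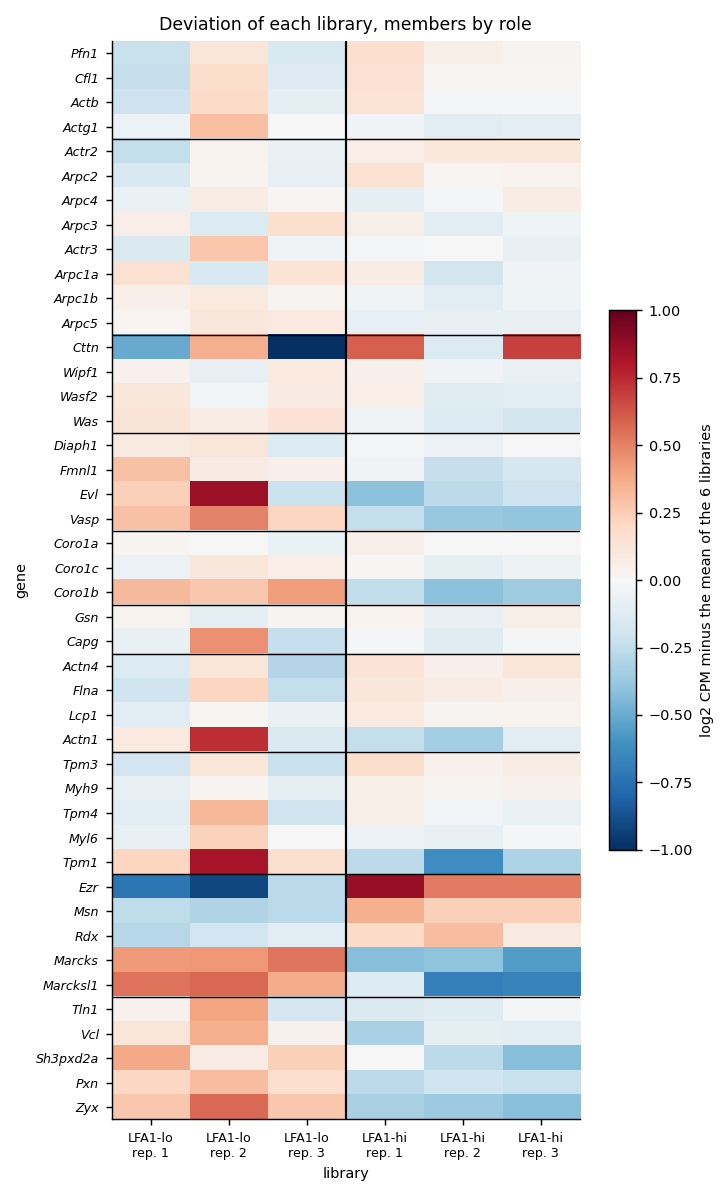
Deviation of each library from the mean of the 6 libraries (log2 CPM, colour scale from -1 to 1) for the 44 tested genes, with lines between roles. LFA1-lo replicate 2 was the highest LFA1-lo library for 30 of the 44 genes, and the membrane linkers divide by group.

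Spread within the groups was unequal. The coefficient of variation was larger in LFA1-lo for 34 of the 44 genes, with medians of 10.2% in LFA1-lo and 5.08% in LFA1-hi, beside 13.9% and 7.81% over all tested genes. In the membrane linkers the medians were 6.06% and 7.65%, and in the Arp2/3 activators 5.81% and 6.39%.

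On the per-length TPM scale the levels ran over several orders of magnitude in nearly the same order in both groups. Actb led with 14655 ± 1772 TPM in LFA1-lo and 15131 ± 749.8 TPM in LFA1-hi (mean ± SD, n = 3), followed by Actg1, Cfl1, Pfn1 and Myl6 in both. The Actg1 values were all above those of Cfl1 in each group, whereas Cfl1 (2499 ± 303 and 2675 ± 114 TPM) and Pfn1 (2250.4 ± 230.2 and 2496 ± 109 TPM) overlapped in both groups. Msn went from the 15th to the 10th place, and Marcks from the 32nd to the 37th. At the low end were Vcl (35.5 ± 3.38 and 27.5 ± 2.94 TPM), Ezr (24.4 ± 6.08 and 57.1 ± 7.55 TPM), Sh3pxd2a (14.1 ± 1.78 and 10.2 ± 1.495 TPM), Cttn (4.30 ± 2.01 and 6.86 ± 1.78 TPM) and Enah (0.030 ± 0.030 and 0.020 ± 0.026 TPM).

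Together the 45 genes made up 3.82% ± 0.352 of all TPM in LFA1-lo and 3.81% ± 0.117 in LFA1-hi. The summed level was 38229 ± 3518 and 38083 ± 1174 TPM, a difference smaller than the spread within either group (exact two-sided permutation test, p = 1.0). Actb alone accounted for 36.9% to 40.5% of it. The shares within the 8 families of related genes were tested in the same exact way, where 3 against 3 libraries cannot go below p = 0.10. The actins, coronins and alpha-actinins reached that smallest value (exact permutation test, adjusted p = 0.267 over the 8 families), the ERM proteins and tropomyosins gave p = 0.2, and the subunit 1, MARCKS and Ena/VASP shares gave p of 0.8 to 0.9.

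**Figure D4:**
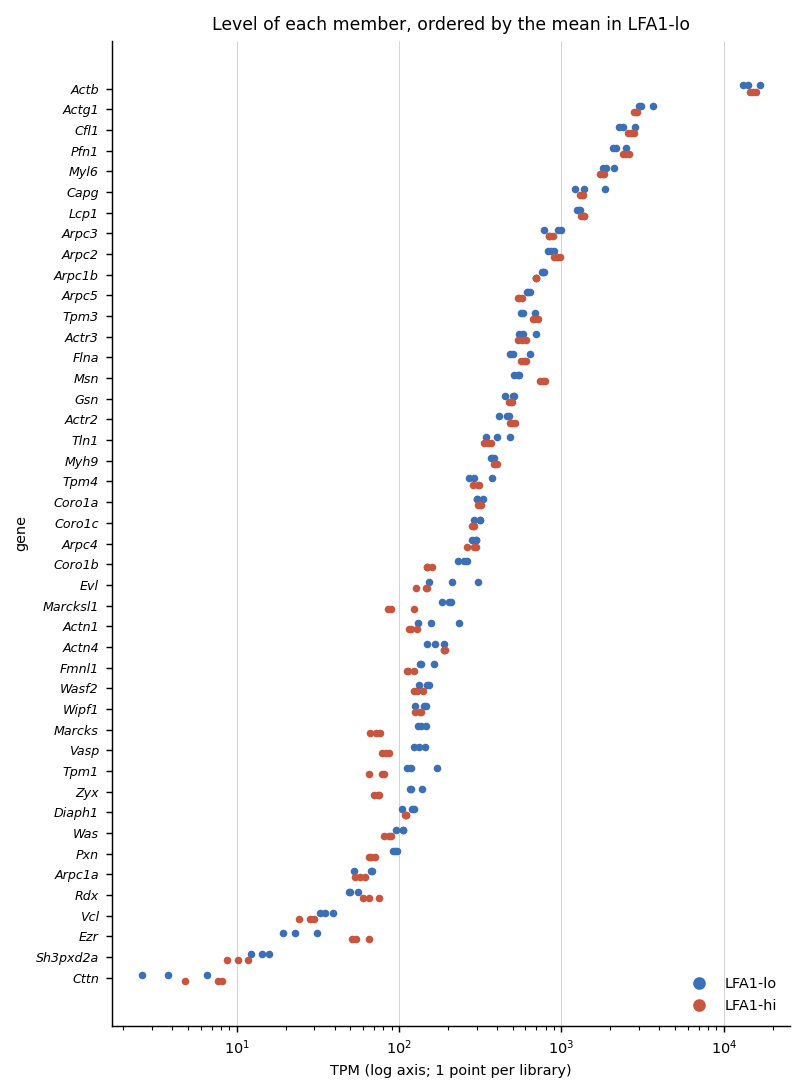
TPM of each gene in each library (horizontal log axis, 1 point per library, LFA1-lo and LFA1-hi in different colours), ordered by the LFA1-lo mean; Enah, under 1 TPM, is left out. The groups lie over each other along most of the order, with Ezr to the right and Marcks and Marcksl1 to the left in LFA1-hi.

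The actin genes are classical targets of serum response factor (SRF), whose MRTF partners are held in the cytoplasm by actin monomers, and SRF binds the CArG box (CC, then 6 bases of A or T, then GG, a pattern that reads the same on both strands). RefSeq promoter windows of GRCm38.p6, from 250 bases before to 50 after a start, were at hand for 38 of the 45 genes; Actb, Cttn, Diaph1, Coro1b, Marcks, Pxn and Sh3pxd2a had none. The box was found in 4 of the 38 (10.5%), Vcl, Actg1, Arpc4 and Myl6. Among all genes with such a window 488 of 27025 held it (1.81%), and among the tested genes 1.48%. The Myl6 box lay within chr10:128493020-128493089, in exon sequence inside the annotated gene (chr10:128490859-128493886) and not upstream of it. Of the 4, Vcl alone was called; 3 of 27 genes that did not pass the test held the box and 1 of 10 that did. The stretches before the starts of Vcl and Actg1 are printed with the box in capitals, as the scaffold that was lower and the actin that did not pass.
Vcl, chr14:20929148-20929210, plus strand: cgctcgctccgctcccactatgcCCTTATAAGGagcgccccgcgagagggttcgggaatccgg
Actg1, chr11:120348546-120348615, minus strand: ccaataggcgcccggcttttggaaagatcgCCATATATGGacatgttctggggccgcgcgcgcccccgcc

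The box lay 227 to 218 bases before the start of Vcl and 90 to 81 bases before that of Actg1. A second motif, the AP-1 type sequence TGANTCA (its own reverse complement, so both strands are covered, and with no overlap with the CArG box), was in 3 of the 38 promoters (7.89%), those of Zyx, Ezr and Actn4, against 8.97% of all genes with a window and 6.08% of the tested genes. The copies in Zyx, which was lower, and Ezr, which was higher, are shown with the motif in capitals, because these called genes moved in opposite directions.
Zyx, chr6:42349697-42349723, plus strand: gtgcggacagTGAGTCAgttctccagc
Ezr, chr17:6782796-6782822, minus strand: cgatcgggcgTGACTCAtcttgggacc

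They lay 121 to 115 bases before the start that the window uses for Zyx and 32 to 26 bases before that of Ezr. The Zyx start of the window lies inside the gene as given above, so this copy is within the annotated gene and not upstream of it. A match describes the letters only, and no data here show a factor at these places.

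Other genes of the actin pathway were counted from 6 lists of known function, also chosen with earlier results of these data known. Of 172 listed genes outside the 45, 158 were tested, and 57 of these passed (36.1%, against 31.7% of all tested genes): 23 were higher in LFA1-hi and 34 lower, with a median log2 fold change of -0.13. Without LFA1-lo replicate 2 the counts were 33 higher and 50 lower, and without LFA1-hi replicate 3 they were 11 and 23. Of all tested genes, 42.3% passed in the former fit and 20.4% in the latter.

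Myosins outside the 45 genes gave 6 lower and 2 higher of 15 tested (53.3% called, against 31.7% of all tested genes), with a median of -0.27. With 1 library set aside these counts were 4 to 7 and 1 to 3. Myo10, the myosin that carries cargo to filopodial tips, was at 486, 581 and 475 CPM in LFA1-lo and 114, 84.8 and 124 CPM in LFA1-hi, with no library near the other group. It fell by 2.26 on the log2 scale (SE 0.15, edgeR adjusted p = 3e-05). Myo1e, a myosin of class I that binds membrane and localises to phagocytic cups and podosomes, was at 764, 939 and 609 CPM against 372, 342 and 404 CPM (log2 fold change -1.05, edgeR adjusted p = 0.00114). Myo6, which moves towards the minus end of filaments, had -1.52 and Myo1d -1.24, both at no more than 21.4 CPM in any library; Myo6 passed in 3 and Myo1d in 4 of the 6 fits that set 1 library aside.

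Of 37 further adhesion and podosome genes, 7 were higher and 8 lower (40.5% called, against 31.7% of all tested genes), with a median of -0.04. With 1 library set aside these counts were 5 to 9 and 3 to 11. The kinase Src, which drives podosome turnover, was at 12.8, 25.1 and 11.5 CPM in LFA1-lo and 3.07, 2.04 and 3.97 CPM in LFA1-hi. LFA1-lo replicate 2 was highest and the groups were well apart (log2 fold change -2.43, SE 0.36, edgeR adjusted p = 0.00161). Tln2, the second talin, was higher but scarce, at 0.418, 0.383 and 0.529 CPM against 2.91, 2.36 and 2.46 CPM (log2 fold change 2.52, edgeR adjusted p = 0.0018). The LIM-domain scaffold Pdlim1 (2.07) was likewise higher from a low level and passed in 5 of the 6 fits that set 1 library aside.

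Further nucleators gave 5 higher and 3 lower of 27 tested (median -0.17). That is 29.6% called, near the 31.7% of all tested genes. The formin Diaph3, which acts in dividing cells among others, was at 19.0, 15.2 and 18.1 CPM in LFA1-lo and 51.6, 50.4 and 47.3 CPM in LFA1-hi, an increase of 1.51 on the log2 scale (SE 0.12, edgeR adjusted p = 3.6e-05). The groups were wide apart, beside summed levels of the G2 and M phase genes of 723 to 1385 CPM in LFA1-lo and 2683 to 3001 CPM in LFA1-hi, whose part in this value was not tested. The ubiquitous WASP relative Wasl (-0.66), the nucleator Jmy (-0.58) and the formin Fmnl2 (0.58) were also called. Wasl and Jmy passed in all 6 fits that set 1 library aside and Fmnl2 in 2 of them. Over those fits the list gave 3 to 5 higher and 3 to 7 lower, with 5 and 7 without LFA1-lo replicate 2.

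Turnover and capping genes gave 4 higher and 2 lower of 30 tested (20% called, against 31.7% of all tested genes), with a median of 0.11. The bundler Pls3, T-plastin, was at 69.6, 74.8 and 79.1 CPM in LFA1-lo and 27.8, 24.8 and 33.1 CPM in LFA1-hi. It fell by 1.38 on the log2 scale (SE 0.12, edgeR adjusted p = 6.7e-05), whereas the related Lcp1 did not pass the test. The calponin Cnn2 (0.44) and the adducin Add3 (0.42) were higher, and the capping subunit Capza2 (-0.39) was lower. Of the 6 fits that set 1 library aside, Cnn2 passed in 2, Add3 in 1 and Capza2 in 3, and Pls3 in all 6; the list gave 0 to 9 higher and 1 to 4 lower.

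The list of SRF and MRTF factors and known target genes holds 29 genes, 9 of them among the 45. Of its 15 other tested genes, 6 were lower and 1 higher (46.7% called, against 31.7% of all tested genes), with a median of -0.24. With 1 library set aside the counts were 6 to 8 and 1 to 2. The immediate early gene Egr1 was at 63.9, 82.8 and 45.2 CPM in LFA1-lo and 9.56, 11.7 and 12.6 CPM in LFA1-hi, far apart (log2 fold change -2.50, SE 0.23, edgeR adjusted p = 0.000152). Fos (-1.44) and Junb (-1.42), AP-1 subunits, were lower too, and Filip1l was higher (1.08). Srf itself was at 59.1, 57.7 and 49.6 CPM against 47.3, 48.6 and 52.4 CPM and did not pass (log2 fold change -0.17, edgeR adjusted p = 0.231).

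**Figure D5:**
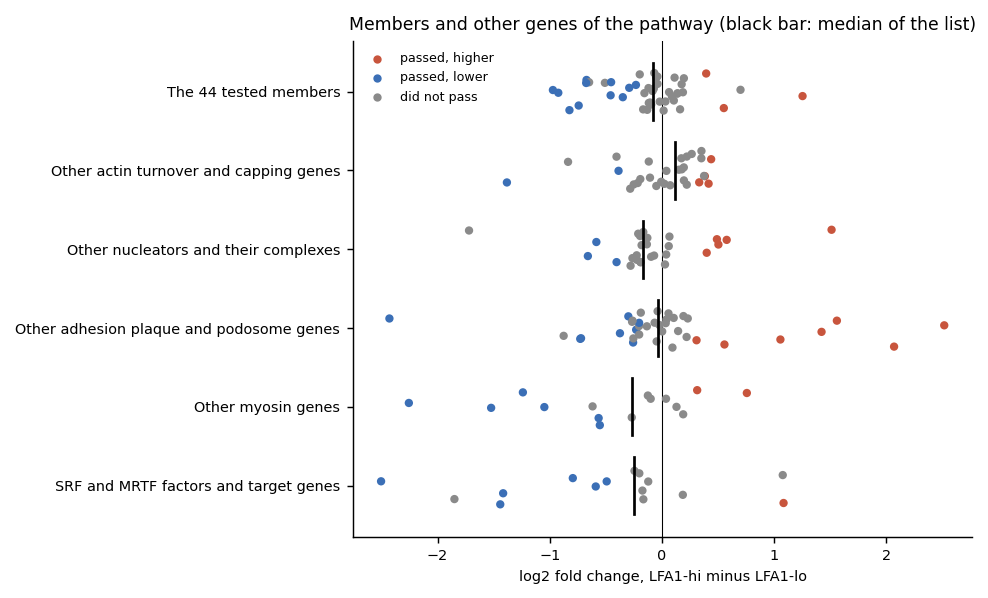
Log2 fold changes (LFA1-hi minus LFA1-lo, horizontal axis) of the 44 tested genes and of the other tested genes in 5 lists of the actin pathway, 1 point per gene, coloured by the test, with black bars at the medians. The other genes reached further out (Myo10 -2.26, Tln2 2.52) than the 44, whose values ran from -0.97 to 1.25.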

How the data were processed

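RNA of 6 libraries was depleted of ribosomal RNA and sequenced; bcl2fastq, Trim Galore, RSEM and the build GRCm38 are named in the submitters' processing notes. Not given in the sources used here are the aligner, the annotation release and whether counting used strand. Per the file headers, the authors deposited RSEM expected counts, TPM and FPKM per gene; the deposited FPKM values were not used. Counts were rounded, filtered with filterByExpr, scaled by TMM and fitted with the robust quasi-likelihood test of edgeR 4.0.16 (R 4.3.3), LFA1-hi minus LFA1-lo, with p-values adjusted by Benjamini-Hochberg over the 11692 genes tested; adjusted p under 0.05 was a call. CPM are TMM-scaled. Other analyses used limma 3.58.1 and DESeq2 1.42.0. Exact permutation tests used scipy 1.17.1. Of these analyses, the edgeR fit alone was tested on simulated counts.

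The 45 genes and all lists were chosen with earlier results of these data known. Values were given for every library for called genes, the actins and relatives of called genes, plus genes singled out after their values were seen, and up to 4 called genes of each pathway list with the largest changes; 1 of these genes and 1 of the 6 lists are not reported here beyond the total counts. Expected counts of Actb, Actg1, Arpc4, Evl, Actn4, Myh9 and Zyx were not whole in at least 1 library, as RSEM divides reads that match several genes. Of the called genes, Msn, Rdx, Vcl, Zyx, Pxn and Sh3pxd2a overlap other annotated genes, and without strand such reads cannot be told apart. In each library between 5.53% and 6.06% of the 24411 listed genes had an expected count that was not whole. Labels give no batch or date.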

Additional observations from a re-analysis of the deposited data

How the results depend on the processing

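No value changed sign past the threshold in the 21 other analyses, and 10 of the 14 called genes passed in all 6 fits that left out a library. The exceptions were Was, Fmnl1, Vcl and Sh3pxd2a. The members called higher were 3 to 11 when a library was left out, with 11 without LFA1-lo replicate 2, and the members called lower 7 to 12. Over these 6 fits 22.7% to 50% of the members passed, against 19.2% to 42.3% of all tested genes. For the other pathway genes the ranges were 11 to 33 higher and 20 to 50 lower. At a threshold of 0.01, members were 3 higher and 6 lower (20.5% called, against 17.3% of all tested genes). Other pathway genes were then 11 higher and 20 lower. Tested against a 1.5-fold change, members were 1 higher and 2 lower (6.82% called, against 7.12% of all tested genes). Other pathway genes were 6 higher and 8 lower in that test. With a replicate block, members were 3 higher and 10 lower (29.5% called, against 27.8% of all tested genes, with Was lost). Deviations of same-numbered libraries correlated at 0.0292, 0.00748 and -0.108, and those of differently numbered ones at -0.074 to 0.0735. With 3 libraries in a group these values cannot tell whether the numbers pair the libraries. With library totals in place of TMM, members were 4 higher and 8 lower (27.3% called, against 32.2% of all tested genes): Actr2 was gained and Fmnl1, Vcl and Was lost. The median log2 fold change of the members stayed between -0.10 and -0.01. Depth limits Enah, at or near 3 counts. Cttn had a mean of 154 expected counts, with a coefficient of variation of 49.3% in LFA1-lo and 28.0% in LFA1-hi.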
